A study of Bos taurus with 9 samples.

Results

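Messenger RNA levels of 79 genes for splicing factors and hnRNP proteins were described in cloned cattle embryos. The genes were chosen by name: an annotated row belonged to the group when its symbol in any of the 9 expression tables began with SNRP, SF3A, SF3B, HNRNP, PRPF or U2AF, or with SRSF or LSM and a digit. Of 17258 annotated genes, 79 met this rule, and each of the 79 had a value in every library. By their known roles they were 7 proteins of the Sm ring, 5 of the U1 particle and its associates, 14 of the U2 particle and U2AF, 10 PRPF proteins of the tri-snRNP and later steps, 12 LSM proteins, 11 SR proteins and 20 hnRNP proteins. In 12 of the 79 genes the symbol differed between the morula tables and the 8-cell tables, so the rows were joined by their Ensembl gene identifier. A gene that bears an older name in every table (such as one listed only by a locus number) was not analysed here.

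All embryos were clones from somatic cell nuclear transfer (SCNT): a fibroblast of 1 female Holstein fetus was fused with an enucleated oocyte. The 9 libraries form 3 groups of 3. KDM6A morulae were SCNT embryos injected with mRNA encoding wild-type bovine KDM6A, a histone H3K27 demethylase, 1 h after activation, and collected as morulae on day 5. Control morulae were SCNT embryos of the same day that received no injection, so injection itself and KDM6A cannot be told apart. The third group was uninjected SCNT embryos at the 8-cell stage, whose data came from an earlier series, so wherever they are used the stage of the embryo and the series it came from cannot be told apart. Each morula library was made from a pool of 5 embryos with amplified cDNA. The labels do not say that pools came from separate cloning sessions, so the p-values rest on a spread between pools that may be technical.

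Splicing removes introns from pre-mRNA in the spliceosome, a machine built from small nuclear ribonucleoprotein particles (snRNPs). U1 recognises the start of an intron, U2AF and U2 recognise its end and branch point, and the U4/U6.U5 tri-snRNP then joins before the catalytic steps. SR proteins and hnRNP proteins bind the pre-mRNA itself and in many cases act against each other on exon choice, SR proteins mostly favouring inclusion and several hnRNP proteins mostly opposing it. The bovine embryo begins large-scale transcription of its own genome around the 8-cell stage, and its transcripts before that are mostly inherited from the oocyte.

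Expression was deposited as FPKM, a fragment number corrected for transcript length and for the size of the library. Read totals per library are not in these tables, so depth is unknown, and summed FPKM ranged from 820346 to 1022423 per library. The mitochondrial share of summed FPKM was 9.64% to 15.2%. Injected morulae held 35.7 to 87.6 FPKM of KDM6A mRNA, against 10.7 to 13.9 FPKM in control morulae and 6.13 to 10.7 FPKM in 8-cell embryos. The pluripotency gene POU5F1 was at 66.02 to 169 FPKM in KDM6A morulae, 124 to 167 FPKM in control morulae and 6.27 to 10.6 FPKM in 8-cell embryos. Markers of other possible sources of RNA were summed per library. Of 14 oocyte and maternal markers 12 were found, and their sum was 511 to 646 FPKM in KDM6A morulae, 397 to 1135 FPKM in control morulae and 5034 to 11035 FPKM in 8-cell embryos, with the highest morula sum in control replicate 1. Of 9 cumulus and granulosa markers 7 were found and summed to 7.56 to 12.5 FPKM in KDM6A morulae, 11.9 to 14.6 FPKM in control morulae and 18.8 to 36.8 FPKM in 8-cell embryos, where PTX3 was at 0. All 12 donor fibroblast markers were found and summed to 80.5 to 131 FPKM in KDM6A morulae, 118 to 167 FPKM in control morulae, where TAGLN was at 0, and 20.7 to 72.4 FPKM in 8-cell embryos. Most of the morula sum was FN1, at 49.8 to 78.4 FPKM in KDM6A morulae, 86.2 to 124 FPKM in control morulae and 0.16 to 1.5 FPKM in 8-cell embryos. S100A4 and THY1 were also higher in morulae. S100A4 was at 12.45 to 19.3, 12.99 to 20.2 and 3.31 to 4.51 FPKM in the same order, and THY1 at 1.45 to 7.88, 1.01 to 2.66 and 0 to 0.03 FPKM. Other markers, among them VIM and COL5A1, ran the other way. VIM was at 0.19 to 0.64, 0.21 to 0.46 and 0.8 to 2.93 FPKM and COL5A1 at 0.01 to 0.04, 0 to 0.01 and 1.12 to 3.52 FPKM. Of the 12 markers, 4, 5 and 8 had a group mean of at least 1 FPKM in the same order. What these sources contribute to the results below was not tested. In RNA from whole embryos, fewer cells of a type and less RNA per cell cannot be told apart.

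The splicing genes were abundant and were detected almost without exception. Between 75 and 78 of the 79 reached 1 FPKM in a library, and 35 to 39 reached 100 FPKM. Their median level was 84.2 to 87.4 FPKM in KDM6A morulae, 75.3 to 91.04 FPKM in control morulae and 73.7 to 89.5 FPKM in 8-cell embryos, where the median over all genes at or above 1 FPKM was 10.5 to 11.3, 10.7 to 11.3 and 9.48 to 10.2 FPKM in the same 3 groups. Together the 79 genes took 2.01% to 2.15% of the summed FPKM in KDM6A morulae, 2.11% to 2.14% in control morulae and 2.61% to 2.74% in 8-cell embryos. The shares of both morula groups overlapped, and every 8-cell library was above every morula library.

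The 12 highest members by mean FPKM over the 9 libraries were SNRPD2, SNRPD1, LSM3, SF3B5, SNRPD3, HNRNPA1, SRSF3, SF3B6, LSM7, SNRPC, SRSF7 and SNRPB. Of these, 4 are Sm proteins, the core ring that is wrapped around the small nuclear RNAs. SNRPD2 led in both morula groups, with 2487, 2955 and 2957 FPKM in KDM6A morulae and 2859, 2133 and 2674 FPKM in control morulae, against 2124, 1533 and 1561 FPKM in 8-cell embryos. In 8-cell embryos SF3B5, a small subunit of the U2 particle, averaged 2123 ± 207 FPKM, SNRPD1 averaged 1913 ± 401 FPKM and SRSF3 averaged 1909 ± 284 FPKM (SD, n = 3 each), and these means lay within about 1 SD of one another. The lowest members were LSM11, a U7 snRNP protein of histone mRNA processing, at 0.06 to 0.42 FPKM in KDM6A morulae, 0.05 to 0.15 FPKM in control morulae and 0 to 0.42 FPKM in 8-cell embryos, and SF3A2, a U2 subunit, at 0.79, 1.52 and 1.11 FPKM in KDM6A morulae, 0.51, 0.39 and 0.58 FPKM in control morulae and 0.73, 0.78 and 0.49 FPKM in 8-cell embryos. Both fell below the filter of at least 1 FPKM in 3 of 6 libraries in every comparison, which left 77 of the 79 to test.

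Within a role the levels spanned orders of magnitude. The Sm role as counted here holds SNRPB and SNRPN, which are alternatives for a single ring position, and SNRPE was not analysed here. The row named SNRPG held 9.49, 10.04 and 10.5 FPKM in KDM6A morulae, 3.66, 11.9 and 6.56 FPKM in control morulae and 9.12, 3.94 and 8.81 FPKM in 8-cell embryos, far below the other genes of that role. That row carries a locus number in place of SNRPG in the 8-cell tables, and reads of near-identical copies of a gene may have been split, so its level is uncertain. Among U1 proteins the range ran from SNRPC, which averaged 861 ± 43.9, 766 ± 102 and 841 ± 48.4 FPKM in KDM6A morulae, control morulae and 8-cell embryos (SD, n = 3 each), down to PRPF40B. The PRPF proteins formed the least abundant role, with a highest member of 41.7 FPKM in KDM6A morulae (PRPF38A), 39.97 FPKM in control morulae (PRPF38A) and 109 FPKM in 8-cell embryos (PRPF18). PRPF31, PRPF19 and PRPF6 held the lowest means of that role in KDM6A morulae, control morulae and 8-cell embryos, at 5.69, 3.29 and 5.67 FPKM. The other lowest members were SRSF12 among SR proteins, at 10.1, 8.44 and 8.11 FPKM in KDM6A morulae, control morulae and 8-cell embryos, and among hnRNP proteins HNRNPUL2 at 4.39 FPKM in KDM6A morulae and 2.62 FPKM in control morulae and HNRNPA0 at 1.11 FPKM in 8-cell embryos. The highest hnRNP member in all 3 groups was HNRNPA1, at 690.2, 859 and 1842 FPKM in the same order of groups.

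The members also varied little between replicates. Over the 74 members with a mean of at least 5 FPKM the median coefficient of variation was 10.2% in KDM6A morulae, 11.4% in control morulae and 15.9% in 8-cell embryos, and over the 6739 genes at that level it was 17.2%, 14.995% and 23.8%. The members are more abundant than most of these genes, which this description does not take into account.

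**Figure D1:**
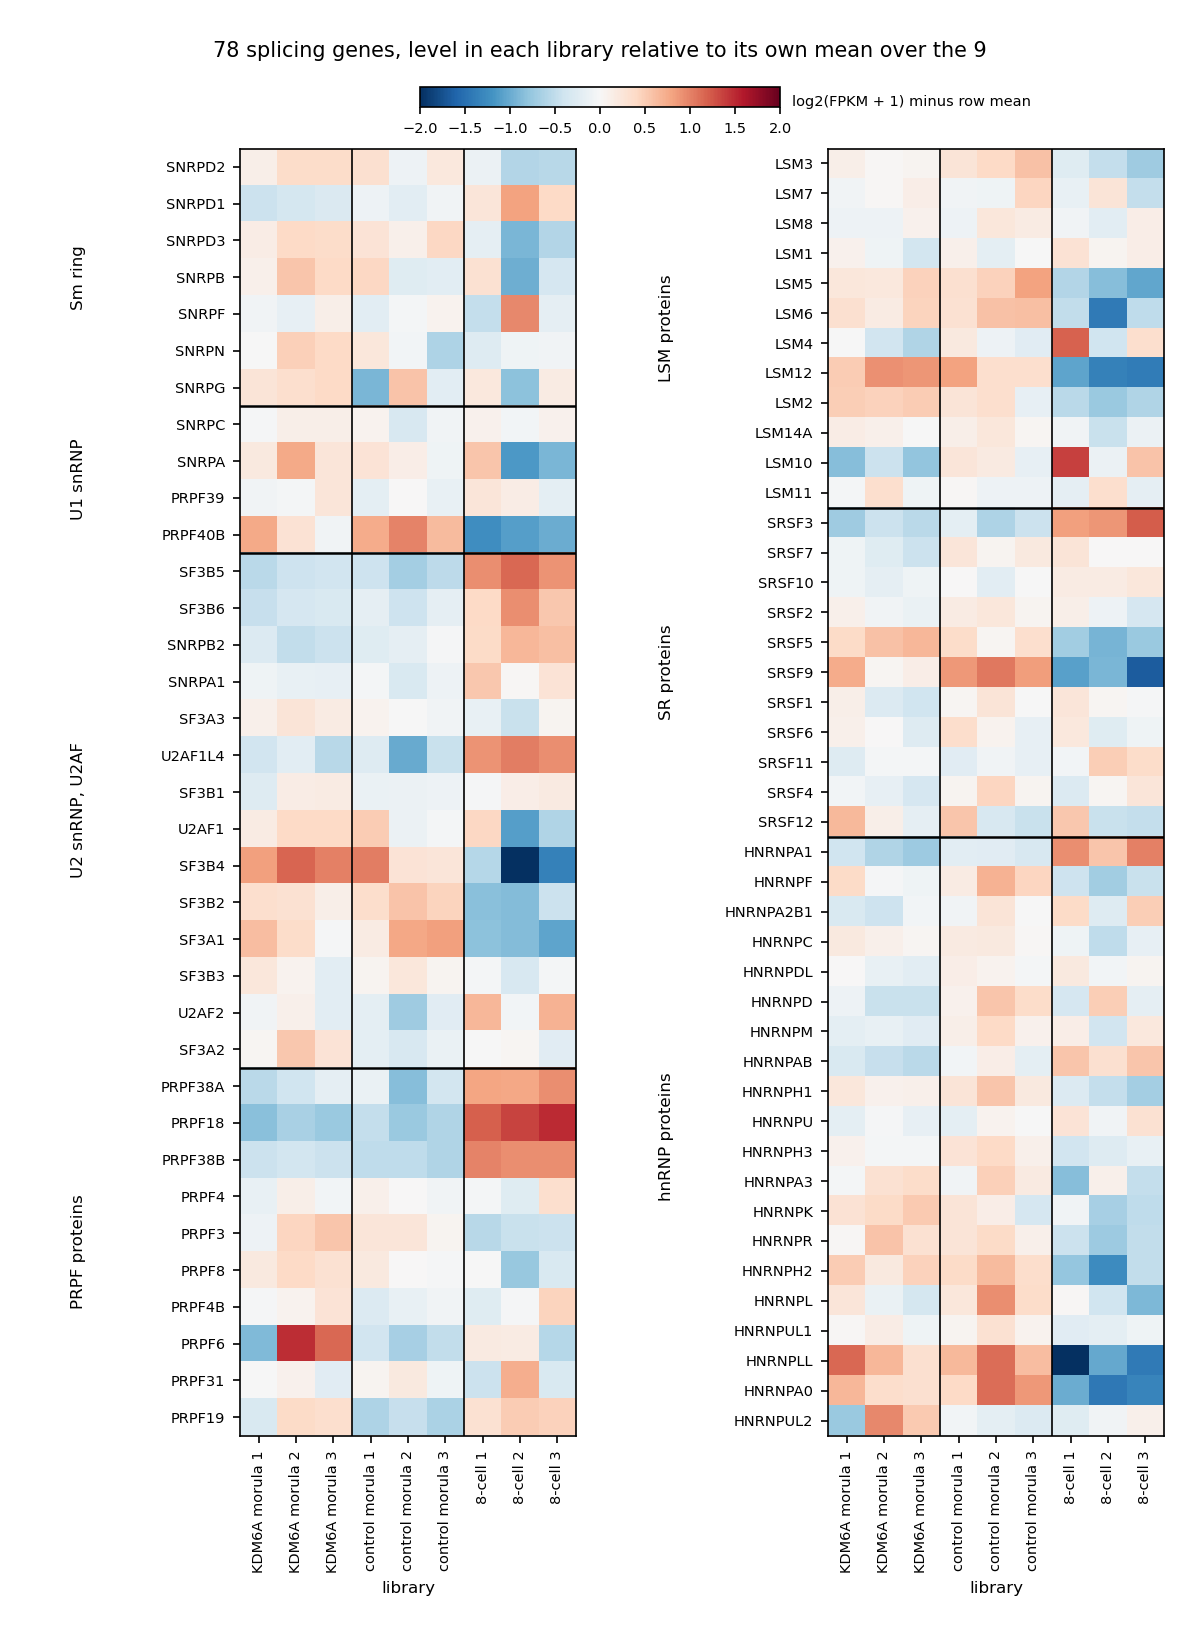
Level of 78 of the 79 splicing genes in each of the 9 libraries, as log2(FPKM + 1) minus that gene's mean over the 9 libraries, with colours cut at -2 and 2. Rows are grouped by role and ordered by mean FPKM within a role; columns run from KDM6A morulae through control morulae to 8-cell embryos, and the strongest contrast lies between the morula libraries and the 8-cell libraries, as in PRPF18, PRPF38B, HNRNPLL and SRSF9.

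The comparison of control morulae with 8-cell embryos sets the stage around which embryonic transcription begins beside the next stage sampled. Individual members moved in both directions, by up to about 2 log2 units, and most roles held both higher and lower genes. Of the 77 members tested, 22 were higher and 14 lower in control morulae at an adjusted p under 0.05, and 41 did not pass. Over all 10048 genes tested, 42.7% were higher and 27.1% were lower by the same rule. The members' shares, 28.6% higher and 18.2% lower, were thus both below those of all genes. The median log2 fold change was 0.15 over members and 0.35 over all genes tested, and 29 of the 77 members lay above the median of all genes. Fold changes here and below were taken between mean log2(FPKM + 1) values, so the change of a gene near 1 FPKM is understated.

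This split depends on the scaling between libraries. The members' counts were 19 higher and 17 lower after rescaling to TPM, 20 higher and 21 lower after quantile normalization, and 18 higher and 22 lower with median-of-ratios factors. By the same rule 38.1%, 36.1% and 36.5% of all genes were higher and 30.4%, 33.2% and 32.9% lower. The median of all genes in those fits was 0.19, 0.07 and 0.10, and 55.6%, 52% and 52.6% of all calls were higher, against 61.2% with FPKM as deposited. All 14 members called lower stayed so under each of these scalings, and no called member changed sign under any alternative tried.

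**Figure D2:**
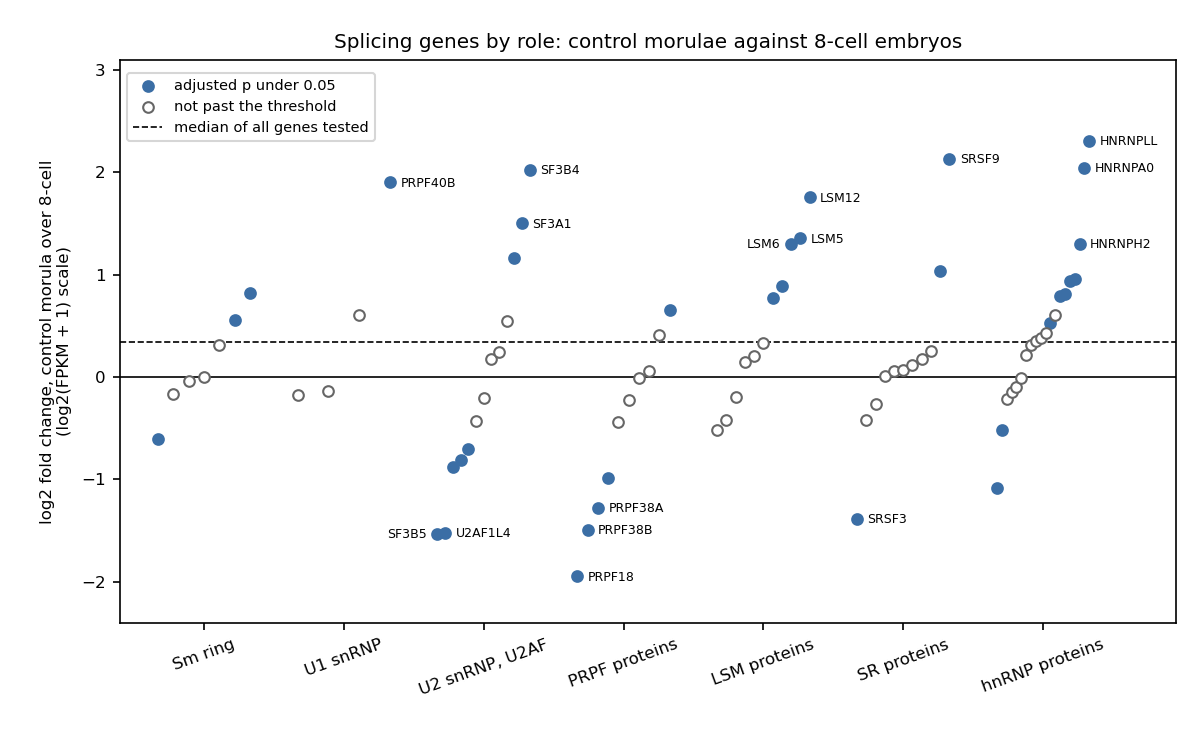
Log2 fold change of control morulae over 8-cell embryos for 76 of the 77 tested splicing genes (log2(FPKM + 1) scale), grouped by role and ordered by size within a role. Filled points passed an adjusted p of 0.05 and open points did not; the dashed line is the median of all genes tested, 0.35, and the labelled genes lie from -1.95 (PRPF18) to 2.31 (HNRNPLL).

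In the Sm ring 2 of 7 members were higher (28.6%) and 1 was lower (14.3%) in control morulae, against 42.7% and 27.1% of all genes. SNRPD3 had 1289, 1526 and 1489.9 FPKM in KDM6A morulae, 1399.8, 1243 and 1537 FPKM in control morulae and 1024, 613 and 771 FPKM in 8-cell embryos. The 8-cell libraries lay below all morula libraries, and the difference between control morulae and 8-cell embryos was log2 fold change 0.82, SE 0.21, adjusted p = 0.00612. SNRPD1, of the same ring, went the other way, with 1011, 1061 and 1113 FPKM in KDM6A morulae, 1267, 1175 and 1290.3 FPKM in control morulae and 1596, 2363 and 1778 FPKM in 8-cell embryos. Here the 8-cell libraries were above all morula libraries (log2 fold change -0.601, SE 0.19, adjusted p = 0.0167), a call that ended without control replicate 2 (adjusted p = 0.0541). SNRPD2 was higher (log2 fold change 0.56, SE 0.200, adjusted p = 0.0295) but lost its call in 8 of 16 alternatives, including all 3 other scalings. SNRPB and SNRPF did not pass, nor did SNRPN, the imprinted close relative of SNRPB. SNRPD1, SNRPD2 and SNRPD3 were named after their values were seen.

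Among U1 proteins, PRPF40B, a mammalian relative of a yeast U1 protein that bridges the ends of an intron, had 4.08, 2.64 and 1.86 FPKM in KDM6A morulae, 3.99, 4.97 and 3.65 FPKM in control morulae and 0.26, 0.39 and 0.51 FPKM in 8-cell embryos, and was higher in control morulae (log2 fold change 1.904, SE 0.21, adjusted p = 4.26e-05). All its 8-cell libraries were below 1 FPKM, so it met the filter only through the morula libraries, where it was higher. Its call is therefore no independent support for the difference. It was tested in 12 of the 16 alternatives. PRPF40B did not reach the 5 FPKM that the naming rule asks for and was named after its values were seen. The core U1 proteins SNRPC and SNRPA and the U1 associate PRPF39 did not pass, but SNRPC was called lower after quantile normalization (adjusted p = 0.0132) and with median-of-ratios factors (adjusted p = 0.0445). SNRPA had 53.5, 79.6 and 55.2 FPKM in KDM6A morulae, 56.3, 50.9 and 43.6 FPKM in control morulae and 68.8, 20.3 and 24.2 FPKM in 8-cell embryos, so its 8-cell libraries alone spanned the whole range of control morulae. Without 8-cell replicate 1 it was called higher (log2 fold change 1.14, adjusted p = 0.00136).

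The U2 particle and U2AF held the most mixed role, with 3 of 13 tested members higher (23.1%) and 5 lower (38.5%). Over all genes tested these shares were 42.7% and 27.1%, and the direction of the role's calls was not tested. The SF3B complex, which clamps the branch point, split by subunit. SF3B5, its smallest subunit, had 733, 799.6 and 815 FPKM in KDM6A morulae, 795, 662 and 742 FPKM in control morulae and 2025, 2360.4 and 1984 FPKM in 8-cell embryos. All morula libraries were below all 8-cell libraries (log2 fold change -1.53, SE 0.17, adjusted p = 3.72e-05). SF3B6, which sits next to the branch-point adenosine, averaged 773 ± 42.4 FPKM in KDM6A morulae, 837 ± 75.2 FPKM in control morulae and 1552 ± 305 FPKM in 8-cell embryos (SD, n = 3 each) and was also lower in control morulae (log2 fold change -0.88, SE 0.19, adjusted p = 0.00222). SF3B4, which contacts the pre-mRNA upstream of the branch point, went the opposite way, with 67.3, 86.04 and 77.1 FPKM in KDM6A morulae, 77.3, 45.5 and 44.9 FPKM in control morulae and 24.9, 5.34 and 14.2 FPKM in 8-cell embryos (log2 fold change 2.02, SE 0.45, adjusted p = 0.00259). SF3B2, which lies beside SF3B4 in the complex, averaged 40.6 ± 3.44 FPKM in KDM6A morulae, 46.9967 ± 3.51 FPKM in control morulae and 20.5 ± 3.86 FPKM in 8-cell embryos, and was likewise higher (log2 fold change 1.17, SE 0.205, adjusted p = 0.000615). The large scaffold SF3B1 did not pass except with median-of-ratios factors, where it was lower (adjusted p = 0.0284), with 56.05, 74.3 and 74.97 FPKM in KDM6A morulae, 61.4, 61.9 and 62.7 FPKM in control morulae and 66.2, 73.3 and 76.1 FPKM in 8-cell embryos.

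The SF3A complex links SF3B to the U2 core. SF3A1 had 40.7, 34.1 and 25.9 FPKM in KDM6A morulae, 29.6, 45.8 and 46.97 FPKM in control morulae and 14.5, 13.9 and 12.1 FPKM in 8-cell embryos, with all morula libraries above all 8-cell libraries (log2 fold change 1.501, SE 0.23, adjusted p = 0.000293). SF3A3 did not pass (log2 fold change 0.17, SE 0.19, adjusted p = 0.425). SNRPB2, a U2 RNA-binding protein, averaged 219.7 ± 17.5 FPKM in KDM6A morulae, 261 ± 20.2 FPKM in control morulae and 426 ± 42.8 FPKM in 8-cell embryos and was lower in control morulae (log2 fold change -0.701, SE 0.17, adjusted p = 0.004). Its partner SNRPA1 missed the threshold with FPKM as deposited (log2 fold change -0.43, SE 0.19, adjusted p = 0.0622), but was called lower under all 3 other scalings (log2 fold change -0.61 to -0.71, adjusted p = 0.00428 to 0.0136), in the fit of all 9 libraries, with array weights and without 8-cell replicate 2.

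The U2AF dimer marks the end of the intron: U2AF2 binds the polypyrimidine tract and U2AF1 reads the AG beside it. U2AF1L4, a paralog of U2AF1, had 92.2, 103 and 81.3 FPKM in KDM6A morulae, 100.2, 59.5 and 87.8 FPKM in control morulae and 225, 244 and 230.03 FPKM in 8-cell embryos. The 8-cell libraries were all above the morula libraries (log2 fold change -1.52, SE 0.21, adjusted p = 0.000161). U2AF1 itself had 65.3, 76.98 and 77.1 FPKM in KDM6A morulae, 83.4, 53.7 and 56.5 FPKM in control morulae and 78.2, 26.5 and 37.97 FPKM in 8-cell embryos and did not pass (log2 fold change 0.55, SE 0.36, adjusted p = 0.193), though without 8-cell replicate 1 it was called higher (log2 fold change 0.97, adjusted p = 0.009). The ratio of U2AF1L4 to U2AF1 within a library had a median of 1.34 in KDM6A morulae, 1.202 in control morulae and 6.06 in 8-cell embryos, with ranges of 1.05 to 1.41, 1.11 to 1.55 and 2.88 to 9.23. U2AF2 had 11.8, 13.4 and 10.7 FPKM in KDM6A morulae, 10.8, 7.28 and 10.6 FPKM in control morulae and 20.4, 11.99 and 20.9 FPKM in 8-cell embryos. It was lower in control morulae (log2 fold change -0.81, SE 0.28, adjusted p = 0.0237), but the call ended without control replicate 2, 8-cell replicate 1 or 8-cell replicate 3 (adjusted p up to 0.098).

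Of the 10 PRPF proteins of the tri-snRNP and later steps, 4 were lower (40%) and 1 was higher (10%) in control morulae. Over all genes tested 27.1% were lower and 42.7% higher, and the direction of this role's calls was not tested. PRPF18, which acts in the second catalytic step, showed the largest fall of any member. It had 23.2, 26.5 and 24.8 FPKM in KDM6A morulae, 29.9, 24.7 and 27.5 FPKM in control morulae and 97.2, 109 and 119 FPKM in 8-cell embryos, with no overlap between stages (log2 fold change -1.95, SE 0.18, adjusted p = 1.60e-05). PRPF38A, which joins the spliceosome as it is activated, had 36.95, 40.6 and 47.5 FPKM in KDM6A morulae, 49.1, 29.4 and 41.4 FPKM in control morulae and 93.6, 93.05 and 103 FPKM in 8-cell embryos (log2 fold change -1.28, SE 0.22, adjusted p = 0.000505). Its relative PRPF38B was at 27.99, 29.5 and 27.99 FPKM in KDM6A morulae, 26.4, 26.6 and 24.9 FPKM in control morulae and 76.99, 73.7 and 73.6 FPKM in 8-cell embryos, a narrow spread in each group (log2 fold change -1.49, SE 0.17, adjusted p = 5.17e-05). PRPF19, the ubiquitin ligase at the heart of the catalytic-stage complex that bears its name, averaged 3.29 ± 0.293 FPKM in control morulae and 7.53 ± 0.619 FPKM in 8-cell embryos (log2 fold change -0.99, SE 0.22, adjusted p = 0.00277). PRPF3 of the U4/U6 particle was the one member higher (log2 fold change 0.65, SE 0.19, adjusted p = 0.0112), and that call ended after rescaling to TPM or with median-of-ratios factors. PRPF4, PRPF6, PRPF8, PRPF31 and the kinase PRPF4B did not pass, although PRPF6 was called lower after quantile normalization and without 8-cell replicate 3 (adjusted p = 0.0231 and 0.0314), and PRPF8 higher without 8-cell replicate 1 (adjusted p = 0.0498).

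Of 11 tested LSM proteins, 5 were higher in control morulae (45.5%, near the 42.7% of all genes) and 0 were lower (27.1% of all genes). Median-of-ratios factors called LSM1 and LSM10 lower and quantile normalization called LSM1 lower, and the direction of the group's calls was not tested. LSM2 to LSM8 form the ring of the U6 snRNA, and LSM1 replaces LSM8 in a cytoplasmic ring that promotes mRNA decapping, so LSM2, LSM3, LSM5 and LSM6 belong to both rings. LSM5 had 192, 189 and 227 FPKM in KDM6A morulae, 205, 226 and 288 FPKM in control morulae and 109, 90.3 and 79.7 FPKM in 8-cell embryos (log2 fold change 1.36, SE 0.201, adjusted p = 0.000217). LSM6 had 159, 141 and 172 FPKM in KDM6A morulae, 155, 189.6 and 193 FPKM in control morulae and 89.5, 46.7 and 88.4 FPKM in 8-cell embryos (log2 fold change 1.301, SE 0.26, adjusted p = 0.00138). Both sat above the 8-cell range in every morula library. LSM3 (log2 fold change 0.89, SE 0.19, adjusted p = 0.00176) and LSM2 (log2 fold change 0.77, SE 0.21, adjusted p = 0.00747) were higher too, while LSM4 and LSM7 of the shared set did not pass, LSM4 being called lower without 8-cell replicate 2 (adjusted p = 0.0237). With FPKM as deposited neither ring-specific subunit passed: LSM8 was at 349.7 ± 26.1 FPKM in KDM6A morulae, 385 ± 43.5 FPKM in control morulae and 348 ± 42.0034 FPKM in 8-cell embryos, and LSM1 at 248 ± 39.1, 262 ± 26.99 and 299.5 ± 26.3 FPKM in the same order (SD, n = 3 each). LSM1 was lower after quantile normalization (log2 fold change -0.39, adjusted p = 0.0299) and with median-of-ratios factors (log2 fold change -0.47, adjusted p = 0.0237). The largest difference was in LSM12, which lies outside both rings, with 64.7, 86.3 and 84.2 FPKM in KDM6A morulae, 79.6, 57.03 and 57.5 FPKM in control morulae and 21.3, 17.1 and 16.6 FPKM in 8-cell embryos (log2 fold change 1.76, SE 0.21, adjusted p = 6.82e-05).

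Most SR proteins did not pass, and the 3 of 11 that did moved far. By call 18.2% of SR genes were higher and 9.09% lower, against 42.7% and 27.1% of all genes. SRSF9 had 134, 82.6 and 87.4 FPKM in KDM6A morulae, 146, 168 and 143 FPKM in control morulae and 37.2, 42.2 and 24.6 FPKM in 8-cell embryos. Every morula library was above every 8-cell library (log2 fold change 2.14, SE 0.23, adjusted p = 2.84e-05). SRSF5 was higher as well, with 144, 166 and 176 FPKM in KDM6A morulae, 143, 114 and 141 FPKM in control morulae and 68.2, 57.9 and 66.2 FPKM in 8-cell embryos (log2 fold change 1.04, SE 0.18, adjusted p = 0.000608). SRSF3, the smallest SR protein, which also aids mRNA export, was lower in control morulae, with 589, 714 and 665 FPKM in KDM6A morulae, 846, 627 and 718 FPKM in control morulae and 1705, 1788 and 2233 FPKM in 8-cell embryos (log2 fold change -1.38, SE 0.19, adjusted p = 0.000132). SRSF7, another SR protein known to aid export, was at 708, 632 and 554 FPKM in KDM6A morulae, 881, 777 and 853 FPKM in control morulae and 899, 748 and 751 FPKM in 8-cell embryos and did not pass (log2 fold change 0.07, SE 0.17, adjusted p = 0.725). The ratio of SRSF3 to SRSF7 within a library was 0.832 to 1.1999 in KDM6A morulae, 0.807 to 0.961 in control morulae and 1.90 to 2.97 in 8-cell embryos. SRSF1, the prototype of the family, had 96.4, 73.8 and 67.6 FPKM in KDM6A morulae, 91.04, 106 and 88.5 FPKM in control morulae and 106, 91.9 and 87.3 FPKM in 8-cell embryos, and its groups overlapped (log2 fold change 0.01, SE 0.18, adjusted p = 0.977). After rescaling to TPM, quantile normalization or median-of-ratios scaling, 2 SR proteins were higher and 3 lower.

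Of 20 hnRNP proteins, 8 were higher in control morulae (40%, near the 42.7% of all genes), 2 were lower (10%, against 27.1% of all genes) and 10 did not pass. HNRNPLL, best known from human and mouse lymphocytes as a switch of CD45 splicing, showed the largest rise of any member on the log2(FPKM + 1) scale. With a pseudocount of 0.1 PRPF40B differed more (3.17, against 2.77 for HNRNPLL), and without 8-cell replicate 1 or control replicate 2 SF3B4 did (2.49 and 2.14). HNRNPLL had 18.3, 12.8 and 9.93 FPKM in KDM6A morulae, 12.7, 17.97 and 12.3 FPKM in control morulae and 1.03, 3.29 and 2.28 FPKM in 8-cell embryos (log2 fold change 2.31, SE 0.31, adjusted p = 0.000129). HNRNPA0 had 6.87, 5.34 and 5.2 FPKM in KDM6A morulae, 5.57, 9.8 and 8.07 FPKM in control morulae and 1.5, 0.85 and 0.99 FPKM in 8-cell embryos (log2 fold change 2.04, SE 0.27, adjusted p = 9.73e-05). Its 8-cell libraries alone would not have met the filter of 1 FPKM, so it was tested only because of the morula libraries, where it was higher. As for PRPF40B, its call is no independent support for the difference. The F/H family, which binds runs of G, was higher in each of its 4 tested members: HNRNPH2 (log2 fold change 1.299, SE 0.23, adjusted p = 0.000684), HNRNPF (log2 fold change 0.95, SE 0.19, adjusted p = 0.00132), HNRNPH1 (log2 fold change 0.81, SE 0.19, adjusted p = 0.00322) and HNRNPH3 (log2 fold change 0.52, SE 0.17, adjusted p = 0.0209). HNRNPH3 lost its call under all 3 other scalings and without control replicate 1 or control replicate 2, and HNRNPH1 and HNRNPH3 were named after their values were seen. HNRNPF had 540.4, 408 and 389.8 FPKM in KDM6A morulae, 465, 669.6 and 558 FPKM in control morulae and 309, 255 and 302 FPKM in 8-cell embryos, and HNRNPH2 had 63.1, 50.4 and 60.6 FPKM in KDM6A morulae, 57.5, 68.7 and 56.1 FPKM in control morulae and 25.1, 17.9 and 30.8 FPKM in 8-cell embryos.

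HNRNPA1, a general repressor of exon inclusion, was the most abundant hnRNP gene and was lower in control morulae. It had 776, 677 and 617 FPKM in KDM6A morulae, 884, 874 and 821 FPKM in control morulae and 1949, 1514 and 2063 FPKM in 8-cell embryos, without overlap between stages (log2 fold change -1.09, SE 0.18, adjusted p = 0.000404). Its close relative HNRNPA2B1 had 317, 293 and 375 FPKM in KDM6A morulae, 372, 467 and 388 FPKM in control morulae and 509, 325 and 548 FPKM in 8-cell embryos and did not pass (log2 fold change -0.14, SE 0.22, adjusted p = 0.588). The ratio of HNRNPA1 to HNRNPA2B1 was 1.64 to 2.45 in KDM6A morulae, 1.87 to 2.37 in control morulae and 3.77 to 4.66 in 8-cell embryos. HNRNPAB was lower (log2 fold change -0.51, SE 0.17, adjusted p = 0.0231), a call that ended without control replicate 1, control replicate 3 or 8-cell replicate 3 (adjusted p up to 0.126). HNRNPR (log2 fold change 0.79, SE 0.19, adjusted p = 0.00344) and HNRNPL (log2 fold change 0.94, SE 0.28, adjusted p = 0.0139) were higher, HNRNPL with its call lost in 3 of 16 alternatives (adjusted p up to 0.0685). HNRNPAB, HNRNPR and HNRNPL were named after their values were seen. HNRNPC, a core packaging protein of nascent transcripts, did not pass, nor did HNRNPU, HNRNPDL or HNRNPM. HNRNPC was called higher without 8-cell replicate 1 (adjusted p = 0.0465), and HNRNPU lower after quantile normalization and with median-of-ratios factors (adjusted p = 0.0475 and 0.0298). HNRNPA1 has many processed copies in mammalian genomes, and whether reads of such copies were split was not given in the sources used here, which also applies to the pairs HNRNPH1 and HNRNPH2, SNRPB and SNRPN, and U2AF1 and U2AF1L4.

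**Figure D3:**
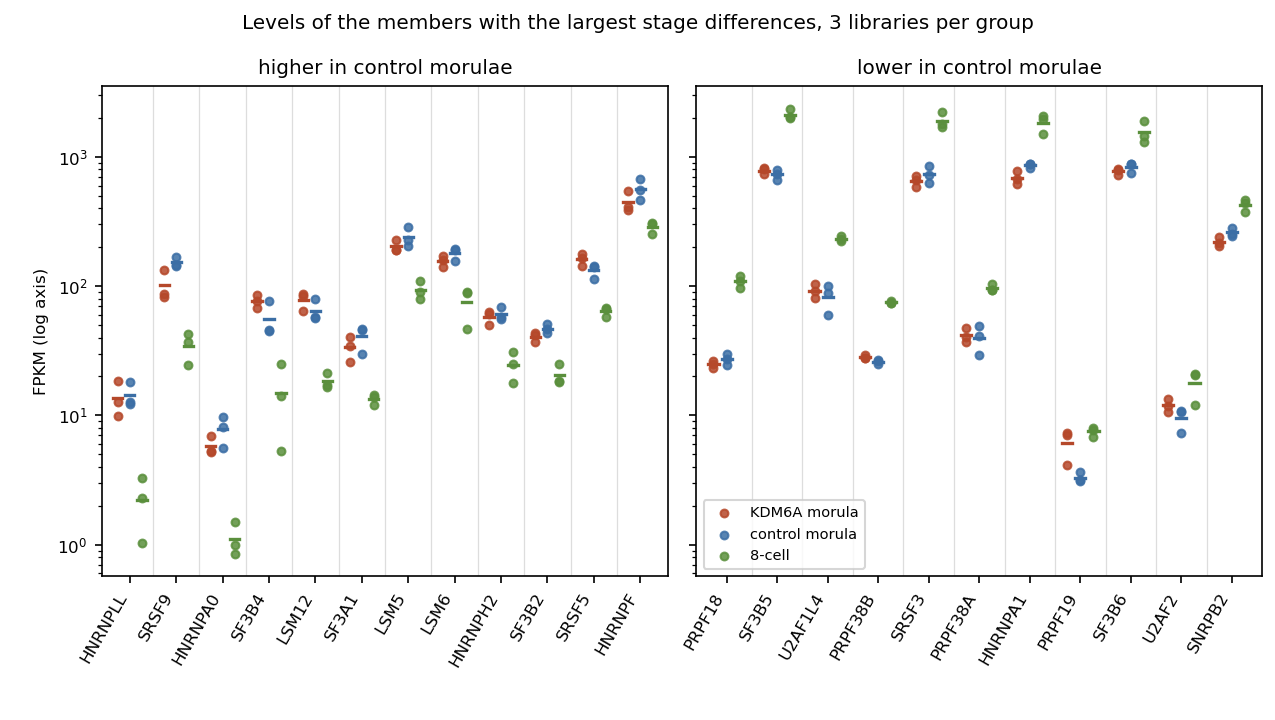
FPKM (log axis) of 23 splicing genes with the largest differences between control morulae and 8-cell embryos, 3 libraries per group as points and the group mean as a bar. The left panel holds 12 genes higher in control morulae, from HNRNPLL (2.31) to HNRNPF (0.95), and the right panel 11 genes lower, from PRPF18 (-1.95) to SNRPB2 (-0.70); in all but PRPF19 and U2AF2 the KDM6A morulae also lay apart from the 8-cell libraries.

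KDM6A morulae were set against the same 8-cell libraries, so the values that follow stand beside those of control morulae and share their 8-cell side. Of 77 members, 22 were higher and 13 lower in KDM6A morulae, where 41.1% of 10024 genes tested were higher and 25.6% lower. Other scalings gave 21 higher and 17 lower (TPM), 18 and 20 (quantile) and 16 and 24 (median-of-ratios). In those fits 38.4%, 34.3% and 35.2% of all genes were higher and 27.7%, 31.5% and 31.1% lower. Of the 23 members in the plot of stage levels, 21 passed in the same direction. HNRNPLL differed by 2.22, SRSF9 by 1.52, SF3B4 by 2.51 and LSM12 by 2.03 log2 units, against 2.31, 2.14, 2.02 and 1.76 in control morulae. PRPF18 differed by -2.08, SRSF3 by -1.53 and SF3B5 by -1.44, against -1.95, -1.38 and -1.53. PRPF19 (log2 fold change -0.28, SE 0.28, adjusted p = 0.383) and U2AF2 (log2 fold change -0.500, SE 0.27, adjusted p = 0.126) did not pass. The members that passed here and not in control morulae were HNRNPK (log2 fold change 0.81, SE 0.21, adjusted p = 0.00567), PRPF8, the core of the U5 particle (log2 fold change 0.65, SE 0.25, adjusted p = 0.0394), and LSM10 of the U7 particle, which was lower (log2 fold change -1.297, SE 0.35, adjusted p = 0.0071). HNRNPL and HNRNPH3 passed in control morulae and not here. In the direct test of KDM6A against control morulae the adjusted p was 0.407 for HNRNPK, 0.589 for PRPF8, 0.239 for LSM10, 0.333 for HNRNPL and 0.48 for HNRNPH3, so a difference between morula groups was not shown for any of them. PRPF8 lost its call in 9 of 16 alternatives.

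**Figure D4:**
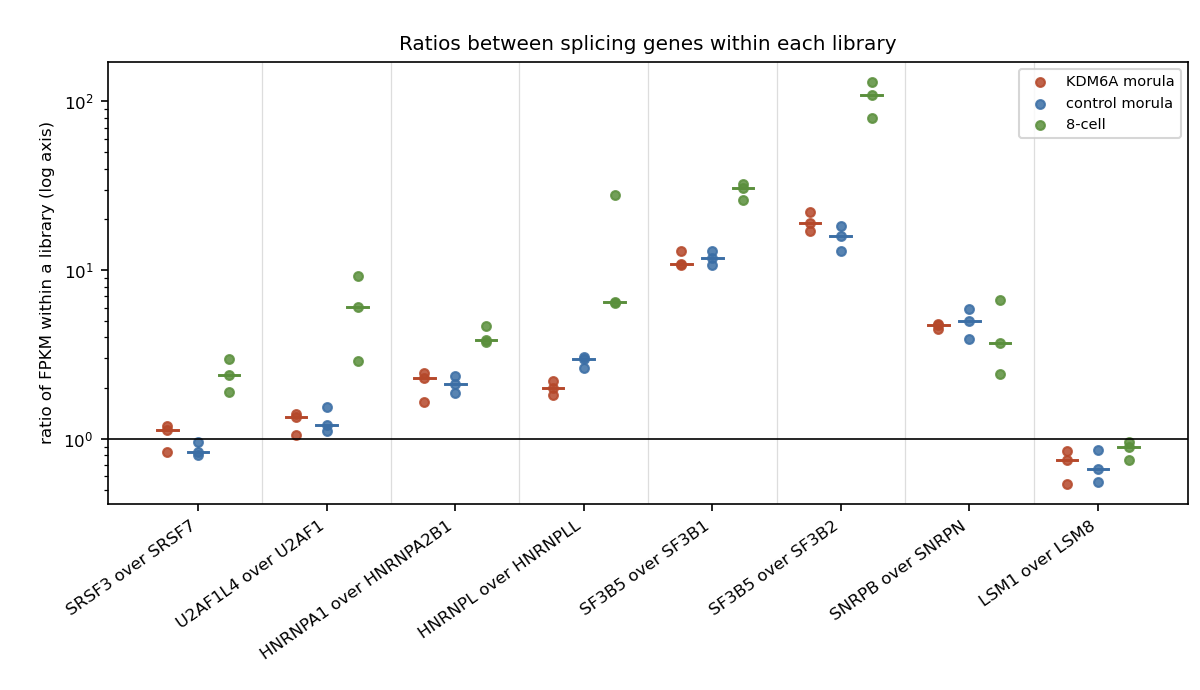
Ratio of FPKM between pairs of related or partner splicing genes within each library (log axis; points are libraries, bars are medians of 3). For SRSF3 over SRSF7 the medians were 1.13 in KDM6A morulae, 0.842 in control morulae and 2.39 in 8-cell embryos, and for SF3B5 over SF3B2 they were 19.1, 15.9 and 109.8; SNRPB over SNRPN overlapped in all groups. The pairs were chosen after the values were seen, so the plot is a description.

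Ratios within a library do not depend on how libraries are scaled. SF3B5 stood to SF3B1 at 10.8 to 13.1 in KDM6A morulae, 10.7 to 12.96 in control morulae and 26.1 to 32.2 in 8-cell embryos. SF3B5 stood to SF3B2 at 17.01 to 22.2, 13.1 to 18.2 and 79.4 to 129.9 in the same order. HNRNPL over its paralog HNRNPLL ran from 1.83 to 2.22 in KDM6A morulae, from 2.64 to 3.05 in control morulae and from 6.42 to 27.9 in 8-cell embryos. LSM1 over LSM8, the subunits that set the cytoplasmic ring apart from the nuclear one, was 0.544 to 0.850, 0.558 to 0.854 and 0.746 to 0.964, with overlapping ranges.

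The comparison of KDM6A morulae with control morulae is the one the study was built on and asks what KDM6A mRNA changes in cloned morulae. No splicing gene passed: 0 of 77 members were higher and 0 lower at an adjusted p under 0.05 by limma, where 0.123% of the 9777 genes tested were higher and 0.0409% lower. With limma array weights, which give each library its own weight, 10 members were higher and 11 lower, where 14.6% and 11.1% of all genes were. At an unadjusted p under 0.05, 2 members were higher and 9 lower, where 6.31% of all genes were higher and 6.41% lower. After rescaling to TPM these member counts were 6 and 6, after quantile normalization 7 and 7, and with median-of-ratios factors 2 and 9. The members' balance thus changed with TPM and quantile normalization and not with median-of-ratios factors. Shares of all genes by this rule are not given for those fits, so these counts have no background beside them. All KDM6A libraries lay above all control libraries in 8 members and below them in 13, where 7.1% and 8.61% of all genes did. In simulated data of the same size, 63% of genes with a change of 1 log2 unit were called and 95% of genes with a change of 2. Those changes were placed only in genes above a minimum reference level, with noise drawn independently for each gene. Recovery for low members such as PRPF6 and PRPF19, or under a shift shared across a library, was therefore not measured. The smallest interval belonged to SNRPD1, whose difference lay between -0.48 and 0.02 log2 units (95%), and the widest to PRPF6, between 0.01 and 2.18.

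The members nearest to the threshold on the lower side were an hnRNP, an LSM and an SR gene. HNRNPD, also called AUF1, which binds AU-rich elements and promotes decay of the mRNAs that carry them, had 206, 162 and 163 FPKM in KDM6A morulae and 236, 328 and 287 FPKM in control morulae. The groups did not overlap (log2 fold change -0.67, SE 0.17, adjusted p = 0.201). LSM10, a ring subunit of the U7 particle, had 8.26, 11.5 and 8.71 FPKM in KDM6A morulae and 18.8, 18.03 and 13.9 FPKM in control morulae, again without overlap (log2 fold change -0.78, SE 0.21, adjusted p = 0.239). SRSF9 had 134, 82.6 and 87.4 FPKM in KDM6A morulae and 146, 168 and 143 FPKM in control morulae (log2 fold change -0.61, SE 0.197, adjusted p = 0.285). Its KDM6A replicate 1 lay close to the controls. SRSF7 (log2 fold change -0.41, SE 0.13, adjusted p = 0.285), LSM3 (log2 fold change -0.34, SE 0.12, adjusted p = 0.306) and HNRNPM (log2 fold change -0.39, SE 0.15, adjusted p = 0.32) also showed no overlap and did not pass.

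On the higher side PRPF19 had 4.11, 7.3 and 7.04 FPKM in KDM6A morulae and 3.15, 3.63 and 3.1 FPKM in control morulae (log2 fold change 0.705, SE 0.24, adjusted p = 0.296). PRPF6, which bridges the U5 and U4/U6 particles, had 2.72, 18.1 and 14.1 FPKM in KDM6A morulae and 4.22, 3.32 and 3.87 FPKM in control morulae (log2 fold change 1.096, SE 0.49, adjusted p = 0.387). KDM6A replicate 1 lay below every control in PRPF6 while replicates 2 and 3 lay far above them. SF3B4 (log2 fold change 0.49, SE 0.22, adjusted p = 0.396), HNRNPK (log2 fold change 0.38, SE 0.18, adjusted p = 0.407), SNRPN (log2 fold change 0.43, SE 0.22, adjusted p = 0.438) and LSM2 (log2 fold change 0.35, SE 0.18, adjusted p = 0.44) differed by less.

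Leaving out KDM6A replicate 1 changed the number of calls. That library held 35.7 FPKM of KDM6A mRNA, against 87.6 and 79.4 FPKM in KDM6A replicates 2 and 3, with POU5F1 at 169 FPKM against 84.0 and 66.02 FPKM and a mitochondrial share of 15.2% against 11.1% and 12.3%; their part in the result was not tested. Over the 79 members its log2 levels correlated with those of the control libraries at r = 0.991 to 0.994 and with those of KDM6A replicates 2 and 3 at r = 0.984 each, which is across genes and not across samples. Without it 3 members were higher and 2 lower: PRPF6 (log2 fold change 1.83, adjusted p = 0.00384), PRPF19 (0.93, 0.026), HNRNPUL2 (0.91, 0.0408), SRSF9 (-0.83, 0.0154) and HNRNPD (-0.79, 0.0252). In that fit 3.8% of all genes tested were higher and 3.75% lower, so the members' counts are near the background. No other single library changed a member's call.

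By role, the directions were not evenly spread, though no member passed. Of 20 hnRNP genes 16 lay below 0, with a median log2 fold change of -0.18, and 15 of 20 did after rescaling to TPM or quantile normalization. Of 11 LSM genes 9 lay below 0 (7 after TPM), and of 11 SR genes 8 did (7 after TPM). In the Sm ring 6 of 7 lay above 0, and in the U1 role 4 of 5, under all 4 scalings. Over all genes tested the median was -0.01 and 5027 of 9777 lay below 0. Members of a role are not independent replicates of a condition, and these counts carry no test.

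**Figure D5:**
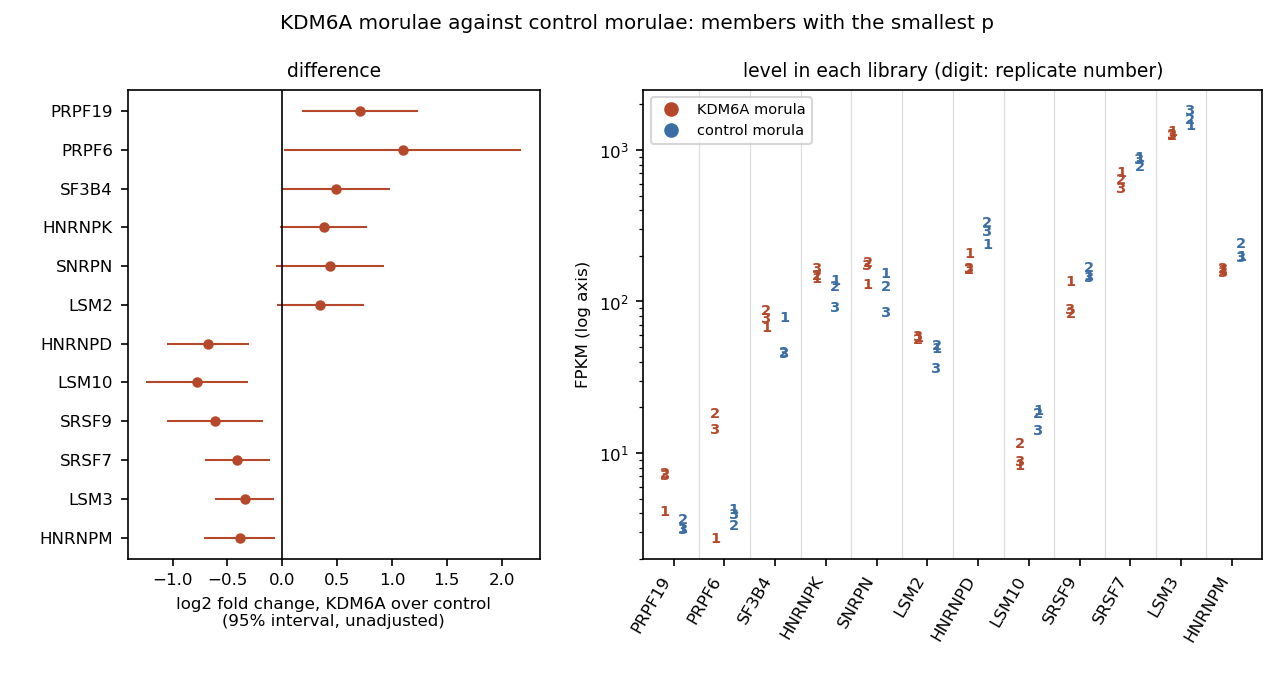
The 6 splicing genes with the smallest p in each direction in KDM6A against control morulae. Left, log2 fold change with its unadjusted 95% interval (limma, log2(FPKM + 1) scale); right, FPKM in each library on a log axis, the digit being the replicate number. None passed adjustment; in PRPF6 and SRSF9 KDM6A replicate 1 lies below or near the control libraries.

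Other genes of the splicing pathway were taken from 5 lists that the naming rule did not reach. They gave 0 calls in either direction in the main limma fit of KDM6A against control morulae, among 25, 23, 16, 19 and 37 genes tested. In that fit 0.123% of all genes were higher and 0.0409% lower. Array weights called 14.6% and 11.1% of all genes, and counts of these lists in that alternative are not given here. Between control morulae and 8-cell embryos each list held genes in both directions, to be read beside the 42.7% higher and 27.1% lower of all genes tested. Of 25 snRNP proteins with other names, 5 were higher (20%) and 9 lower (36%). The largest rises were in U5 proteins: TXNL4A averaged 238 ± 14.9 FPKM in control morulae and 34.5 ± 10.95 FPKM in 8-cell embryos (log2 fold change 2.79, SE 0.23, adjusted p = 7.69e-06), and the U5 GTPase EFTUD2 averaged 20.4 ± 3.82 and 3.77 ± 0.834 FPKM (log2 fold change 2.161, SE 0.25, adjusted p = 4.81e-05; SD, n = 3 each). The largest falls were in SNRNP48, at 11.3 ± 1.82 FPKM in control morulae and 37.1 ± 0.576 FPKM in 8-cell embryos (log2 fold change -1.65, SE 0.204, adjusted p = 7.38e-05), and RNPC3, at 12.6 ± 2.53 and 37.7 ± 5.86 FPKM (log2 fold change -1.52, SE 0.23, adjusted p = 0.000239), both proteins of the minor spliceosome, which removes a rare class of introns.

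Of 23 genes of the Prp19 complex and the catalytic steps, 4 were higher (17.4%) and 7 lower (30.4%) in control morulae. PPIL1 and ISY1 rose most (1.43 and 1.17 log2 units), and SLU7, a second-step factor, and PPIE fell most (-1.31 and -1.14). Of 16 genes for snRNP assembly, where the SMN complex loads Sm rings onto small nuclear RNAs, 9 were higher (56.2%) and 2 lower (12.5%). GEMIN7 averaged 88.5 ± 16.9 FPKM in control morulae and 40.2 ± 21.0023 FPKM in 8-cell embryos (log2 fold change 1.27, SE 0.39, adjusted p = 0.0144) and GEMIN8 averaged 52.9 ± 12.2 and 26.3 ± 11.97 FPKM (log2 fold change 1.05, SE 0.32, adjusted p = 0.0135), while GEMIN5, which recognises the small nuclear RNA, and TGS1, which trimethylates its cap, were lower (-0.91 and -0.69 log2 units). The assembly list held 5 higher and 3 lower after rescaling to TPM.

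Of 19 genes of the exon junction complex and mRNA export, 7 were higher (36.8%) and 5 lower (26.3%), led by MAGOHB (1.84) and THOC6 (1.81) upward and THOC1 (-1.46) and PNN (-1.42) downward, in log2 units. Of 36 splicing regulators and SR protein kinases, 10 were higher (27.8%) and 14 lower (38.9%). The polypyrimidine tract-binding proteins, paralogs that repress exons, differed in opposite directions. PTBP1 averaged 96.4 ± 21.6 FPKM in control morulae and 34.1 ± 14.9 FPKM in 8-cell embryos (log2 fold change 1.53, SE 0.297, adjusted p = 0.00114), PTBP3 averaged 12.9 ± 5.64 and 41.5 ± 5.71 FPKM (log2 fold change -1.68, SE 0.29, adjusted p = 0.000511) and PTBP2, the form best known from neurons in mouse, averaged 3.1 ± 0.477 and 12.01 ± 1.37 FPKM (log2 fold change -1.67, SE 0.23, adjusted p = 0.000144). PCBP1, a poly(C)-binding protein, was the other leading rise (log2 fold change 1.89, SE 0.29, adjusted p = 0.000256).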

How the data were processed

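RNA-seq of 9 libraries was used. FPKM values were computed by the authors and deposited per gene with 2 decimals. The submitters' processing notes list bcl2fastq 2.16, HISAT 0.1.6, StringTie 1.0.4, Bowtie2 2.2.5, RSEM 1.2.12 and the build UMD3.1, without saying which produced the values, and strand handling was not given in the sources used here. Low FPKM values did not fall on steps that would give back read numbers (the commonest step held 3.92% to 8.15% of genes over 36 pairs of libraries), so read depth is unknown and no count test was run. No 2 libraries held identical values.

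Tables were joined by gene identifier (16713 genes in the 6 morula tables, 16129 in all 9). The table of control morula replicate 1 holds 3038 further rows without an annotated identifier, left out of every test. Each comparison used its own 6 libraries in limma (version 3.58.1, R 4.3.3), fitting group means to log2(FPKM + 1) with a trended prior, genes of at least 1 FPKM in 3 of 6 libraries and Benjamini-Hochberg adjustment over all genes tested, at a threshold of 0.05. Tested on simulated data with 200 changed genes, the fit recovered 63% and 95% (KDM6A against control morulae), 37% and 86% (control morulae against 8-cell) and 37% and 85% (KDM6A morulae against 8-cell) of genes changed by 1 and 2 log2 units, with 6, 5 and 5 false calls among 9777, 10048 and 10024 genes. The changed genes lay above a minimum reference level and noise was independent between genes, so low genes and shifts shared across a library were not covered. The number of changed genes also sets the adjusted threshold. In the real data 4293 genes were called higher and 2719 lower between control morulae and 8-cell embryos, and 12 and 4 between KDM6A and control morulae. The simulated recoveries therefore do not carry over to these comparisons. With 3 libraries against 3, an exact permutation test of one gene cannot go below p = 0.1, so none is given.

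The members and gene lists were chosen with earlier results of these data known. Named genes follow a rule: between control morulae and 8-cell embryos, the 12 largest rises and 12 largest falls among called members whose groups do not overlap and whose higher mean is at least 5 FPKM; between KDM6A and control morulae, the 6 smallest p per direction; the 12 highest levels and the highest and lowest member per role; and the 2 largest changes per direction in each pathway list. The results of 1 member are not reported here, in text or figures, though it stays in the counts and medians. Others are stated as named after their values were seen. Alternatives changed the pseudocount, filter, scaling, libraries in the fit, library weights and replicate block, and left out each library in turn.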

Additional observations from a re-analysis of the deposited data

How the results depend on the processing

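With KDM6A against control morulae, limma array weights called 10 members higher and 11 lower, when 14.6% and 11.1% of all genes were called, and leaving out one library at a time gave 0 to 3 higher and 0 to 2 lower, the 3 and 2 without KDM6A replicate 1; every other alternative gave 0 and 0. Between control morulae and 8-cell embryos, median-of-ratios factors called 22 members lower, where 32.9% of all genes were lower. Leaving out a library gave 19 to 27 members higher and 12 to 17 lower, where 32.8% to 45.3% of all genes were higher and 21.5% to 28% lower. Between KDM6A morulae and 8-cell embryos, quantile normalization called 20 members lower and median-of-ratios factors 24, where 31.5% and 31.1% of all genes were lower. Leaving out a library gave 19 to 25 members higher and 13 to 17 lower, where 30.2% to 43.2% of all genes were higher and 19.4% to 25.5% lower. The cause of these shifts was not tested. Leaving out a morula library in a stage comparison leaves 2 in that group. No named member changed sign in any alternative run. HNRNPF in KDM6A morulae against 8-cell embryos lost its call with median-of-ratios factors (0.35) and without KDM6A replicate 1 (0.47). U2AF2 in that comparison passed with quantile normalization, with median-of-ratios factors and without 8-cell replicate 2 (-0.75 in each). The replicate numbers in the titles are not stated to mark a shared batch. Same-numbered deviations correlated at -0.21, -0.22 and 0.13 for KDM6A and control morulae, and between -0.09 and 0.08 in the other comparisons. With 3 same-numbered pairs per comparison, these values cannot show whether libraries shared a batch. A fit with the replicate block called 0 higher and 0 lower members (KDM6A against control morulae), 23 higher and 14 lower (control morulae against 8-cell) and 23 higher and 14 lower (KDM6A morulae against 8-cell). In both stage comparisons with the block, 42.2% and 41.1% of all genes were higher and 26.9% and 25.3% lower, in that order. Unknown depth limits what low members such as LSM11 and SF3A2 can show.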

Other observations

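The make-up of the splicing genes' own transcript pool can be given without a scaling between libraries, as each role's share of the 79 members' summed FPKM. U2 and U2AF genes made up 13.3% ± 0.0793 of the pool in KDM6A morulae, 12.6% ± 0.501 in control morulae and 22.0% ± 2.202 in 8-cell embryos (SD, n = 3 each). Sm ring genes made up 33.6% ± 2.15, 30.3% ± 2.05 and 24.03% ± 1.48 in the same order, LSM genes 17.2% ± 0.612, 18.7% ± 1.89 and 11.9% ± 1.02, and SR genes 11.5% ± 0.699, 12.6% ± 0.566 and 15.8% ± 1.16. The hnRNP genes held 17.9% ± 1.48, 20.2% ± 2.69 and 19.8% ± 2.14. These shares are carried by the few most abundant genes of each role, such as SF3B5 and SF3B6 for U2, and were computed after the values were seen, so no test is given.

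Ranks within a library are likewise free of such a scaling. Among the 16129 genes present in all 9 tables, SRSF9 stood at percentile 91 to 93.7 in KDM6A morulae, 93.8 to 94.8 in control morulae and 82.0 to 87.8 in 8-cell embryos. LSM12 stood at 89.4 to 91.7, 88.8 to 90.6 and 78.0 to 80.9, and PRPF18 at 79.9 to 81.6, 80.6 to 82.6 and 92.7 to 93.9 in the same order. In all 3 genes the ranges of both morula groups lay apart from the 8-cell range. These genes were named because their FPKM did not overlap between stages. Their separation by rank was thus largely set by that choice and is a description.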
